A study of Homo sapiens with 9 samples.

Results

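Biglycan (BGN) and 8 related genes of the small leucine-rich proteoglycan (SLRP) family, DCN, LUM, FMOD, PRELP, ASPN, OGN, EPYC and PODN, were examined in OVCA433, an established human ovarian serous adenocarcinoma cell line. The 9 genes were taken by symbol from the 58676 genes of the count table. The family was selected on the counts of BGN itself, which differ strongly between the hairpins, so all BGN values, and all values of members between the hairpins, are descriptions without a test. The cells had been transduced with lentiviral vectors that carried shRNA #1 (hairpin #1) or shRNA #3 (hairpin #3) against MPZL3, a predicted cell adhesion molecule, or a control vector. The control samples carry the genotype label WT. Whether their vector was empty or encoded a scramble hairpin is uncertain, because the study's methods give both. There were 3 libraries in each group, named A, B and C, and the study describes them as biological replicates of each condition. No labels state that the replicates came from separate transductions, so p-values measure the spread between these libraries.

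SLRPs are secreted proteins of the extracellular matrix whose curved core of leucine-rich repeats binds collagen fibrils and growth factors. BGN and decorin (DCN) carry chondroitin or dermatan sulfate chains, lumican (LUM) and fibromodulin (FMOD) can carry keratan sulfate, and free BGN is known as a ligand of the Toll-like receptors TLR2 and TLR4. In tumors the family is mostly a product of stromal cells, and fibroblasts are a common source.

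MPZL3, the targeted gene, measured 19.5 ± 3.42 CPM (read counts relative to the library total, scaled by TMM; mean ± SD of 3 libraries) in control. It was 1.89 ± 0.0926 CPM after hairpin #1 and 1.57 ± 0.514 CPM after hairpin #3. Its log2 fold change was −3.37 with hairpin #1 (adjusted p = 6.07e-08) and −3.62 with hairpin #3 (adjusted p = 4.7e-08), by the quasi-likelihood test of edgeR and Benjamini-Hochberg adjustment over all tested genes. The remaining MPZL3 level did not differ detectably between the hairpins, with a log2 difference of −0.25 ± 0.259 (SE) and an adjusted p of 0.614. Library totals ranged from 16850854 to 23890191 counts, and Pearson's r between libraries of a group was 0.986 to 0.992 across genes, which are not independent replicates.

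Of the 9 members, 3 had no read in any library (DCN, FMOD and PODN), 3 had 1 or 2 reads over all 9 libraries (ASPN, OGN and EPYC), and 3 passed the filter on low counts (BGN, LUM and PRELP). BGN, ENSG00000182492, lies at chrX:153494939-153509554 on the plus strand of hg38. LUM, ENSG00000139329, lies at chr12:91102629-91111831 on the minus strand, with DCN and EPYC on the same strand of chromosome 12. PRELP, ENSG00000188783, lies at chr1:203475828-203491352 on the plus strand, near FMOD at chr1:203340628-203351489 on the minus strand.

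Promoters are shown for the member with the largest counts, for a detected member of low count and for a member of the same GC content without reads. They span 250 bases before and 50 after the gene start in RefSeq, build GRCh38.p14, where 7 of the 9 members were matched and LUM and DCN were not. Capitals mark the GC box GGGCGG on either strand (CCGCCC when read on the other strand).
BGN promoter, chrX:153494730-153495029, plus strand: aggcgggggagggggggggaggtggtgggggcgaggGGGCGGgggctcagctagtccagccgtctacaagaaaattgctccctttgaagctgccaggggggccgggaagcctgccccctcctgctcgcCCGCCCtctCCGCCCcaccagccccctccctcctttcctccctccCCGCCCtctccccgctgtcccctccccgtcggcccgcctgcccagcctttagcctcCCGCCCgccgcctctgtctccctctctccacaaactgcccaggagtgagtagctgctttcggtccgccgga
PRELP promoter, chr1:203475556-203475855, plus strand: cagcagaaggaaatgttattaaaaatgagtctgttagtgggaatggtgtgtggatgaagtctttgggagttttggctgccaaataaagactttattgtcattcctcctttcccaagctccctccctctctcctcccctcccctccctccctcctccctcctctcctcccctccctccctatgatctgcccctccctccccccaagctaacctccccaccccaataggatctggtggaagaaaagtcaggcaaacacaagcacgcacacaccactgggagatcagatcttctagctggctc
PODN promoter, chr1:53061963-53062262, plus strand: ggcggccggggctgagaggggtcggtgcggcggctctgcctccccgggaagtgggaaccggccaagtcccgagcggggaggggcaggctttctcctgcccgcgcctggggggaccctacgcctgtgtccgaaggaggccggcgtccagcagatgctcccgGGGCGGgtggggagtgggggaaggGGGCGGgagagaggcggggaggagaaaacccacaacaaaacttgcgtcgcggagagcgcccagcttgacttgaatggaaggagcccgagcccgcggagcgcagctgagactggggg
The BGN window held 5 GC boxes, 19 CpG dinucleotides and 71.7% GC, against a median of 58.7% GC and 14 CpG over 35116 promoters of 300 bases, and 83.4% of those promoters had a lower GC content. The PODN window had the same 71.7% GC, with 27 CpG and 2 GC boxes, although PODN had no read. The PRELP window had 52.7% GC, 1 CpG and no GC box. At least 1 GC box was found in 45% of all promoters. None of the 7 windows held the E-box CACCTG or the AP-1 motif TGANTCA, searched on both strands, which 20.6% and 7.71% of all promoters held. The TATA motif TATAAA, which 11.5% of all promoters held, was found 1 time each in the FMOD and OGN windows and 3 times in the EPYC window, and not in the 3 windows shown. A match of letters is a description of the window and not a binding site.

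BGN was close to the detection limit in control cells and was an abundant transcript with hairpin #3. Its raw counts were 20, 13 and 16 in control A, B and C, 294, 561 and 569 with hairpin #1, and 2611, 2628 and 3140 with hairpin #3. In CPM these were 0.969, 0.647 and 0.765 in control, 13.7, 28.5 and 24.4 with hairpin #1, and 153.6, 144.2 and 144.5 with hairpin #3. All libraries with hairpin #1 were above all control libraries, and all with hairpin #3 were above all with hairpin #1. The means were 0.793 ± 0.163, 22.2 ± 7.64 and 147.5 ± 5.36 CPM (SD, n = 3). Hairpin #1 was the most variable group, with library A lowest. The fitted log2 fold change against control was 4.79 with hairpin #1 (27.7-fold) and 7.53 with hairpin #3 (184-fold), and that of hairpin #3 minus hairpin #1 was 2.73 (6.64-fold). Leaving out any 1 library moved these values within 4.57 to 5.04, 7.39 to 7.69 and 2.47 to 2.95. These measurements are of bulk RNA, in which more cells that express a gene and more RNA per cell cannot be told apart.

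**Figure D1:**
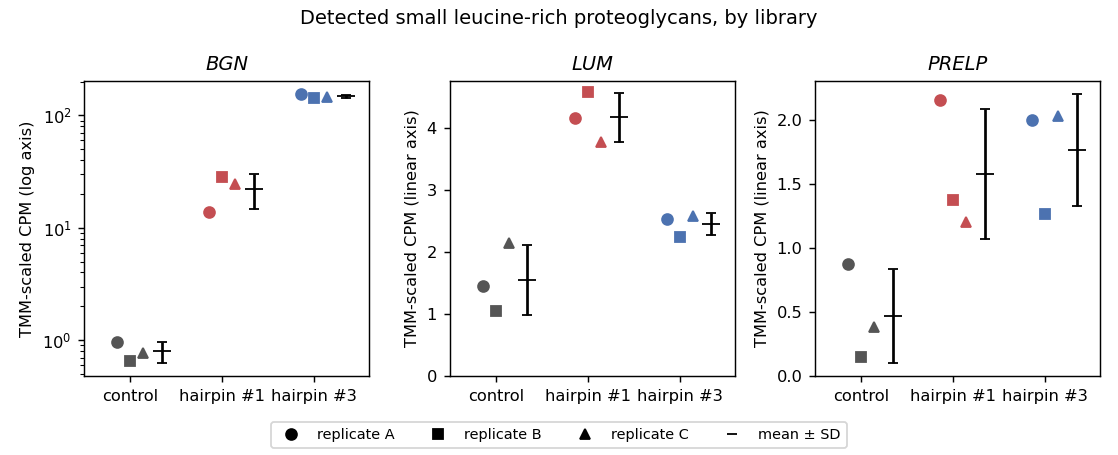
TMM-scaled CPM of BGN (log axis), LUM and PRELP (linear axes from 0) in each of the 9 libraries, with circles, squares and triangles for replicates A, B and C and black bars for the mean ± SD of each group (n = 3). BGN separates into 3 levels around 0.793, 22.2 and 147.5 CPM, LUM is highest with hairpin #1, and PRELP is higher with both hairpins, which overlap.

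LUM, which organizes collagen fibrils in cornea and skin, was measured at a few CPM and followed another order than BGN. Its counts were 30, 21 and 45 in control, 89, 90 and 88 with hairpin #1 and 43, 41 and 56 with hairpin #3. These were 1.45, 1.04 and 2.15 CPM in control, 4.16, 4.58 and 3.77 CPM with hairpin #1 and 2.53, 2.25 and 2.58 CPM with hairpin #3. The 3 groups did not overlap, with hairpin #1 highest and hairpin #3 in between. LUM rose with hairpin #1, with a log2 fold change of 1.42 ± 0.254 (SE) and an adjusted p of 0.000606 by edgeR's quasi-likelihood test. With hairpin #3 the log2 fold change was 0.66 ± 0.265 and did not pass (adjusted p = 0.0726). Hairpin #3 minus hairpin #1 was −0.76 on the log2 scale, where BGN had 2.73, and neither was tested.

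With both hairpins taken as 1 knockdown arm of 6 libraries, the log2 fold change of LUM was 1.09 ± 0.312, with an adjusted p of 0.0181. This call was lost without control A (1.05, adjusted p = 0.0637), without control B (0.87, adjusted p = 0.0956) and, by the fold threshold, without hairpin #1 B (0.98, adjusted p = 0.0312).

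PRELP, a matrix protein that binds collagen and the heparan sulfate chains of other proteoglycans, rose with both hairpins from a very low level. Its counts were 18, 3 and 8 in control, 46, 27 and 28 with hairpin #1 and 34, 23 and 44 with hairpin #3. In CPM these were 0.872, 0.149 and 0.382 in control, 2.15, 1.37 and 1.2 with hairpin #1, and 2.0, 1.26 and 2.02 with hairpin #3. All 6 knockdown libraries were above all 3 control libraries, and the hairpins overlapped each other. The control counts were too low to pass the filter, so PRELP was tested through the knockdown libraries. Its p-values are therefore no independent support for a rise. The log2 fold change was 1.73 ± 0.477 with hairpin #1 (adjusted p = 0.0112) and 1.90 ± 0.476 with hairpin #3 (adjusted p = 0.00708), and 1.82 ± 0.447 for the pooled knockdown (adjusted p = 0.00826). The size of these changes depended on single control libraries. Without control A, the control library with the most PRELP reads, the values were 2.53, 2.69 and 2.61. Without control B, with 3 reads, they were 1.31, 1.48 and 1.40 (adjusted p = 0.0469, 0.0299 and 0.0359 by edgeR's quasi-likelihood test). The hairpin #3 minus hairpin #1 difference of PRELP was 0.17 on the log2 scale.

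Of the members other than BGN, 2 were called in the pooled knockdown, 2 with hairpin #1 and 1 with hairpin #3, where a call needs an adjusted p below 0.05 and a log2 fold change of at least 1 in either direction. PRELP is among the called members in each comparison and passed the filter through the knockdown libraries, so its calls are no support. Over all 15975 genes tested, 14.7% were called in the pooled knockdown, 16.3% with hairpin #1 and 15.3% with hairpin #3. With only LUM and PRELP measurable beside BGN, no share of the family can be read against these backgrounds. The hairpin comparisons share the 3 control libraries, so they are not independent of each other.

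The 6 other members gave no measurable level. ASPN had 1 read in each of hairpin #1 C and hairpin #3 B, OGN had 1 read in each of hairpin #1 A and B, and EPYC had 1 read in control A. A count of 0 allows up to 3 counts, or 0.129 to 0.177 CPM depending on the library, for counting error only. ASPN (asporin) and OGN (osteoglycin) lie within CENPP, which had 1602 counts and runs on the opposite strand. BGN overlaps the start of HAUS7 on the minus strand, which had 128 counts over all libraries against 9852 for BGN, and because the libraries were non-directional the reads of overlapping genes cannot be told apart by strand. HAUS7 itself had log2 fold changes of 1.35 with hairpin #1 (adjusted p = 0.0374) and 1.04 with hairpin #3 (adjusted p = 0.123).

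Per kilobase of the gene length given in the count table, the control level was highest for LUM (0.515 ± 0.186 CPM per kb), then BGN (0.323 ± 0.0663) and PRELP (0.0814 ± 0.0642). LUM and BGN overlapped in control, at 0.347 to 0.715 and 0.264 to 0.395 CPM per kb, while PRELP was below both. With hairpin #1 the order was BGN at 9.06 ± 3.11, LUM at 1.39 ± 0.134 and PRELP at 0.274 ± 0.0879 CPM per kb, with no overlap. With hairpin #3 it was BGN at 60.1 ± 2.19, LUM at 0.815 ± 0.059 and PRELP at 0.307 ± 0.0755 CPM per kb, again with no overlap. Among the tested genes, BGN went from rank 14039 in control to rank 4761 with hairpin #1 and rank 630 with hairpin #3 by this level. LUM and PRELP stayed in the lower part of the distribution, at ranks 10938 and 14123 with hairpin #1 and 12249 and 14052 with hairpin #3.

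BGN made up most of the family's reads in every knockdown library and a minority in every control library. Its share of the reads of the 9 members was 29%, 35.1% and 23.2% in control, with 95% Wilson intervals of 19.6 to 40.6%, 21.8 to 51.2% and 14.8 to 34.4%. It was 68.4%, 82.6% and 82.9% with hairpin #1 and 97.1%, 97.6% and 96.9% with hairpin #3, with intervals that cover counting error only. LUM held 43.5 to 65.2% in control, 12.8 to 20.7% with hairpin #1 and 1.52 to 1.73% with hairpin #3. The sum over the members was 1.84 to 3.34 CPM in control, 20.1 to 34.5 CPM with hairpin #1 and 147.8 to 158.2 CPM with hairpin #3.

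**Figure D2:**
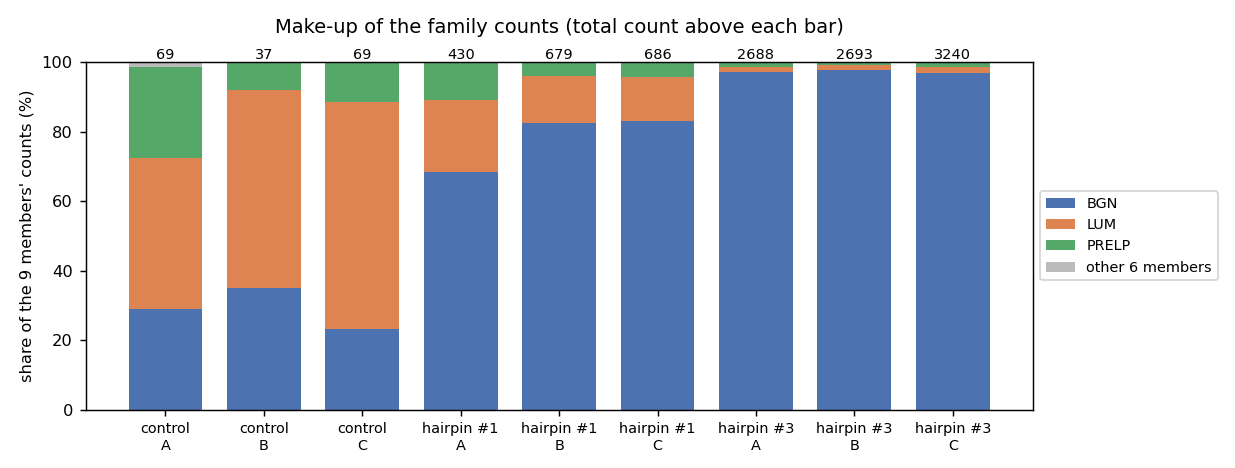
Share of the counts of the 9 members (%) taken by BGN, LUM, PRELP and the other 6 members in each library, with the total count of the 9 members above each bar. The BGN share is 23.2 to 35.1% in control, 68.4 to 82.9% with hairpin #1 and 96.9 to 97.6% with hairpin #3.

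The 5 genes whose log2 CPM was most correlated with that of BGN over the 9 libraries, out of 9693 genes that averaged 10 CPM or more, were PARD6G (Pearson's r = 0.996), HSPB8 (0.992), FGF2 (0.988), PKIG (0.987) and SMARCA2 (0.987). These genes were picked for the pattern and carry no test, and the 9 points fall into 3 groups. FGF2, a heparin-binding growth factor, had means of 96.4, 249.9 and 418.4 CPM in control, hairpin #1 and hairpin #3. HSPB8, a small heat shock protein, had 3.07, 10.6 and 22.1 CPM, and PARD6G, a cell polarity protein, had 9.19, 13.8 and 18.7 CPM. Each had the order of BGN with a much smaller range.

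Within 500 kb of BGN, 23 other genes were tested, of which 6 were called with hairpin #1 and 4 with hairpin #3. Their median log2 fold changes were 0.07 and −0.01. Over all tested genes 16.3% and 15.3% were called, and 3.93% between the hairpins. The counts of neighbours are too small to be read as a difference from these shares. The nearest tested gene before BGN, U82695.9 at 7.9 kb, had no read in control. It passed the filter through the knockdown libraries, so it had to differ, and its calls among the 6 and the 4 are no support. U82695.9 was at least 4.14-fold higher with hairpin #1 and 2.18-fold with hairpin #3, from means of 0.604 and 0.318 CPM. The nearest after BGN, FAM58A at 78.4 kb, had log2 fold changes of 0.05 and −0.03 (adjusted p = 0.789 and 0.883 by edgeR's quasi-likelihood test). Between the hairpins 2 of the 23 were called, and both were named after their values were seen. SLC6A8, the creatine transporter, was higher with hairpin #3 by 1.34 on the log2 scale (adjusted p = 3.8e-06), and L1CAM, a neural cell adhesion molecule, was lower by a log2 difference of −1.09 (adjusted p = 6.85e-05). Around PRELP and FMOD, 14 genes were tested, of which 1 was called with hairpin #1 and 0 with hairpin #3 (0 by DESeq2, with 5 at an unadjusted p below 0.05 in edgeR). BTG2 and ATP2B4, the nearest on each side, had log2 fold changes of −0.23 and 0.08 with hairpin #1 and −0.08 and −0.26 with hairpin #3. No gene within 500 kb of the LUM, DCN and EPYC locus passed the filter.

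Genes that build, bind or process these proteoglycans were counted in lists chosen from knowledge of the pathway. Over all tested genes 16.3% were called with hairpin #1, 15.3% with hairpin #3 and 3.93% between the hairpins. The counts of each list stand beside these shares. The median log2 fold change of all genes was near 0 in every comparison. Where a count of a few genes is given below, genes beyond the naming rule are named to account for it and were chosen after their values were seen.

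**Figure D3:**
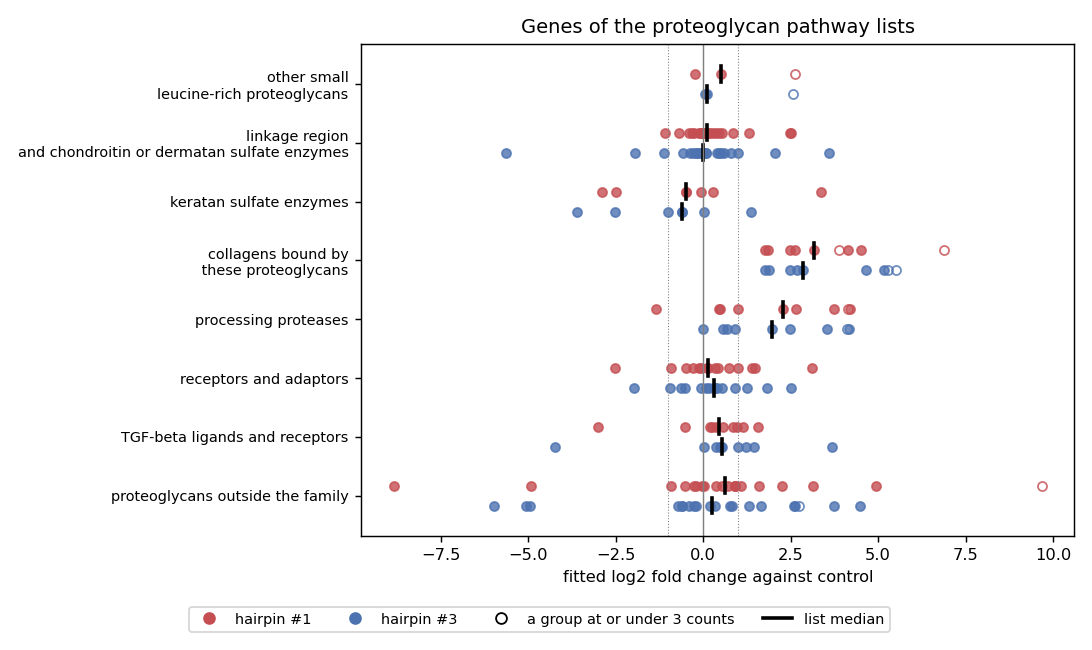
Fitted log2 fold change against control (x axis) of each tested gene of 8 pathway lists (y axis), with red points for hairpin #1 and blue points for hairpin #3. Open points are genes with a group at or under 3 counts in all its libraries, black ticks are list medians and dotted lines mark a log2 fold change of 1 in either direction. All 9 tested collagens lie to the right of 1 with both hairpins, while most other lists spread to both sides of 0.

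The collagens that SLRPs bind moved in 1 direction. Of 12 listed, 9 were tested, and all 9 rose with hairpin #1 and with hairpin #3, with median log2 fold changes of 3.16 and 2.85, or 2.63 and 2.68 when COL1A2 and COL3A1, at or under 3 counts in control, were set at their bounds. These 2 passed the filter through the knockdown libraries, so they had to differ. COL1A1, the main chain of type I collagen, measured 20.1, 16.7 and 16.9 CPM in control, 94.9, 417 and 424.7 CPM with hairpin #1 and 483.9, 592.9 and 846.6 CPM with hairpin #3. Its log2 fold changes were 4.13 ± 0.453 and 5.16 ± 0.473 (adjusted p = 9.04e-06 and 1.82e-06), and hairpin #1 A was lowest of the knockdown libraries, as it was for BGN. COL6A3 rose from 51.5 ± 9.94 to 1174 ± 89.4 and 1305 ± 151 CPM and COL5A1 from 129 ± 3.3 to 1154 ± 487 and 931.7 ± 146 CPM. Only COL1A2, the partner chain of COL1A1, was called between the hairpins, with 1.03, 4.48 and 2.44 CPM with hairpin #1 and 1.0, 0.823 and 0.782 CPM with hairpin #3 (log2 difference −1.60, adjusted p = 0.0434). COL1A2 was at least 18.1-fold higher than control with hairpin #1 and at least 5.95-fold higher with hairpin #3. The call of COL1A2 between the hairpins was lost when any 1 of 7 single libraries was left out, with adjusted p up to 0.226 without hairpin #1 B. The call of COL3A1 with hairpin #1 was lost without control B, control C, hairpin #1 A or hairpin #1 C, with adjusted p of 0.103, 0.102, 0.123 and 0.0514.

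Proteases that cleave SLRPs or their partner collagens were called in 5 of 9 tested genes with each hairpin, all of them higher, with list medians of 2.27 and 1.97. ADAMTS5, an aggrecanase, rose from 7.73 ± 0.577 to 141 ± 60.9 CPM with hairpin #1 and 90.9 ± 3.13 CPM with hairpin #3, with log2 fold changes of 4.19 and 3.55 (adjusted p = 4.16e-08 and 1.89e-07). HTRA1, a secreted serine protease, rose from 1.13 ± 0.477 to 15.3 ± 0.819 and 20.5 ± 5.71 CPM. MMP2 and MMP14, a gelatinase and the membrane protease that activates it, rose by 2.64 and 2.27 on the log2 scale with hairpin #1 and by 1.97 and 2.49 with hairpin #3. ADAMTS4, also an aggrecanase and 1 of these 5, was at or under 3 counts in control and passed the filter through the knockdown libraries, so it had to differ. It was at least 8.57-fold and 8.4-fold higher with the hairpins. BMP1, the enzyme that removes the BGN propeptide, had log2 fold changes of 0.46 and 0.58. These were under the fold threshold, so BMP1 was not called (adjusted p = 0.017 and 0.00491 by edgeR's quasi-likelihood test). Between the hairpins 0 of the 9 were called by edgeR's test or by the DESeq2 Wald test, and 2 had an unadjusted p below 0.05 in the former.

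Of 22 tested enzymes that start and build chondroitin or dermatan sulfate chains, 4 were called with hairpin #1 and 6 with hairpin #3. The list medians were 0.11 and 0.00. With hairpin #1 this share, 18.2%, was near the 16.3% over all tested genes, and with hairpin #3 it was 27.3% against 15.3%. CHSY3 (a chondroitin synthase), UST (a uronyl sulfotransferase) and DSEL (a relative of the dermatan sulfate epimerase) rose with both hairpins, and PXYLP1, the phosphatase of the linkage xylose, fell with both (log2 fold changes −1.08 and −1.13). CHSY3 passed the filter through the knockdown libraries, so its calls against control are no support. PXYLP1 with hairpin #1 dropped under the fold threshold without control A. DSEL with hairpin #3 (1.01) did so without control B (0.95), control C (0.99), hairpin #3 A or hairpin #3 B (0.94).

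3 enzymes of this list differed between the hairpins, and 2 of them were lower with hairpin #3. XYLT1, a xylosyltransferase that places the first sugar on the core protein, measured 16.7, 16.02 and 21.03 CPM in control, 14.3, 14.2 and 14.7 CPM with hairpin #1, and 0.588, 0.384 and 0.138 CPM with hairpin #3. The libraries of hairpin #1 lay just under those of control, and all libraries of hairpin #3 lay far under both. The log2 fold change of XYLT1 was −0.32 ± 0.175 with hairpin #1 (adjusted p = 0.179) and −5.64 ± 0.274 with hairpin #3 (adjusted p = 4.31e-09), and the difference of −5.32 had an adjusted p of 1.34e-07. XYLT2, the second enzyme of this step, had 104.5 ± 9.79, 119.4 ± 7.84 and 109.8 ± 5.53 CPM in control, hairpin #1 and hairpin #3 and was not called. CHST15, which sulfates chondroitin sulfate further, measured 43.6 ± 4.44, 26.9 ± 1.64 and 11.4 ± 2.55 CPM and was called with hairpin #3 (log2 fold change −1.94, adjusted p = 3.11e-07). CHSY3 measured 0.517 ± 0.196, 2.99 ± 0.607 and 6.28 ± 0.586 CPM, with log2 fold changes of 2.51 and 3.59 and a difference of 1.08 (adjusted p = 0.008).

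Of the keratan sulfate enzymes, 3 of 7 tested were called with each hairpin, 1 higher and 2 lower, with medians of −0.48 and −0.60. B3GNT7, which extends the chain, and CHST6, which sulfates it, fell from 3.71 ± 0.706 and 3.53 ± 0.517 CPM in control to under 1 CPM with both hairpins. CHST2, another sulfotransferase, measured 3.2, 4.63 and 3.49 CPM in control, 37.7, 39.8 and 38.7 CPM with hairpin #1 and 9.3, 9.93 and 10.1 CPM with hairpin #3. The 3 groups did not overlap, and the order was that of LUM. The log2 fold changes of CHST2 were 3.36 ± 0.143 and 1.38 ± 0.146 (adjusted p = 1.11e-09 and 7.09e-06), and the difference of −1.98 had an adjusted p of 1.33e-06.

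**Figure D4:**
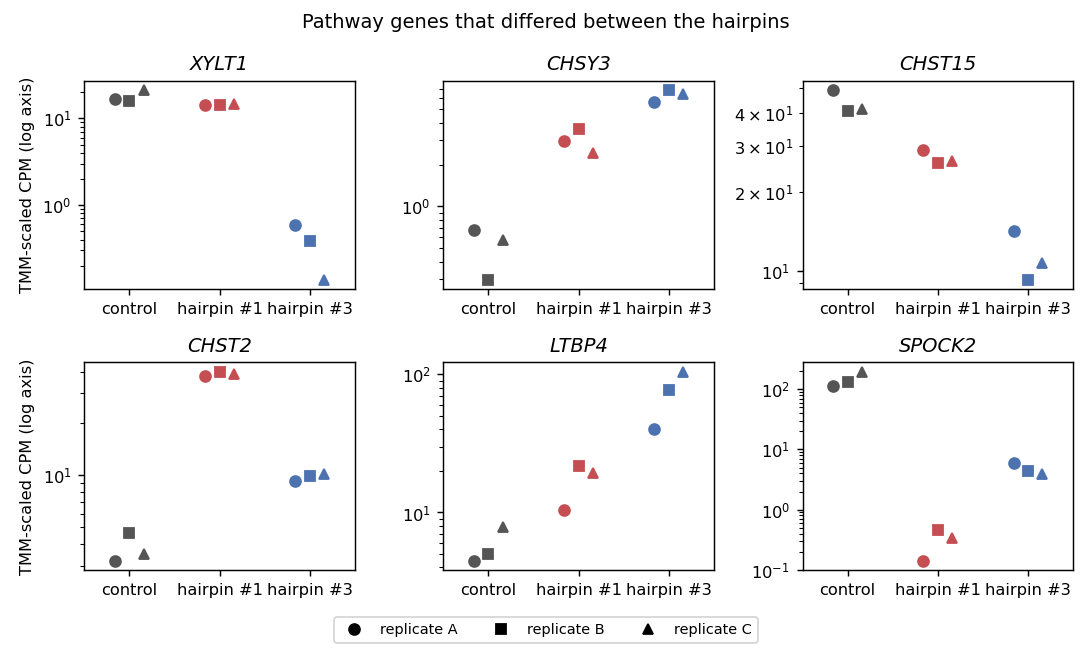
TMM-scaled CPM (log axes) of 6 pathway genes called between the hairpins, by group, with circles, squares and triangles for replicates A, B and C. XYLT1 is low with hairpin #3 alone (0.138 to 0.588 CPM), CHST2 is highest with hairpin #1, CHSY3 and LTBP4 are highest with hairpin #3, CHST15 is lowest with hairpin #3 and SPOCK2 is lowest with hairpin #1.

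Among 15 tested receptors and adaptors of SLRPs, 3 rose and 1 fell with each hairpin, and 0 were called between the hairpins, with medians of 0.14 and 0.31. Between the hairpins the quasi-likelihood test of edgeR gave 5 of the 15 an unadjusted p below 0.05, and the DESeq2 Wald test called 0. Of the Toll-like receptors that bind BGN, TLR2 fell from 6.19 ± 0.524 CPM to 1.07 ± 0.0784 and 1.58 ± 0.548 CPM (log2 fold changes −2.52 and −1.97, adjusted p = 3.5e-06 and 2.81e-05), and TLR4 rose with hairpin #1 from 6.3 ± 1.07 to 17.5 ± 3.89 CPM (1.48, adjusted p = 0.000113). With hairpin #3 TLR4 was at 11.8 ± 2.93 CPM and its log2 fold change of 0.91 was under the fold threshold, which it passed without control A (1.03) or hairpin #3 B (1.06). KDR, a VEGF receptor that binds decorin, rose from 0.291 ± 0.173 CPM to 2.54 ± 0.139 and 1.71 ± 0.0998 CPM, and LRP1, an endocytic receptor, rose by 1.40 and 1.26 on the log2 scale. P2RX7, an ATP-gated channel, was called with hairpin #3 (1.83, adjusted p = 0.00568) and had 0.75 with hairpin #1 (adjusted p = 0.242). Both KDR and P2RX7 passed the filter through the knockdown libraries, so their calls in these counts are no support.

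SLRPs bind TGF-beta, and of 10 ligands, receptors and latent binding proteins 3 were called with hairpin #1 and 5 with hairpin #3. LTBP1, which tethers latent TGF-beta to the matrix, fell from 15.7 ± 2.27 CPM to 1.97 ± 0.679 and 0.845 ± 0.396 CPM. LTBP4 measured 4.46, 5.03 and 7.79 CPM in control, 10.5, 21.6 and 19.2 CPM with hairpin #1 and 40.1, 77.5 and 104.1 CPM with hairpin #3, in the order of BGN and with no overlap. Its log2 fold changes were 1.56 ± 0.352 and 3.68 ± 0.357 (adjusted p = 0.00324 and 3.12e-06). TGFBR3, the co-receptor betaglycan, rose by 1.13 and 1.23. LTBP2 and TGFB1 rose with hairpin #3 by 1.45 and 1.00, and had 0.85 and 0.98 with hairpin #1, under the fold threshold. Without hairpin #1 A both passed with hairpin #1 as well, and the count there went from 3 to 5, while TGFB1 with hairpin #3, at the threshold itself, was called or not according to the library left out (0.92 without control A).

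Of 20 tested proteoglycans outside the family, 5 rose and 2 fell with hairpin #1 and 6 rose and 3 fell with hairpin #3, with medians of 0.63 and 0.27. GPC6, a glypican that passed the filter only through hairpin #1, had no read in control and 4.44, 5.95 and 4.72 CPM with hairpin #1, at least 34.5-fold higher than control, but only 2 reads or fewer per library with hairpin #3. SDC2, syndecan-2, was at 3.0, 3.53 and 2.96 CPM in control and at 10.1, 7.48 and 2.44 CPM with hairpin #1, and had reads in only 1 library with hairpin #3 (0.274 CPM). With hairpin #1 SDC2 was not called (log2 fold change 1.07, adjusted p = 0.0716 by edgeR's quasi-likelihood test), though it was without hairpin #1 C (1.47). SPOCK2, testican-2, fell from 145.3 ± 43.3 CPM to 0.314 ± 0.161 CPM with hairpin #1 and 4.73 ± 1.02 CPM with hairpin #3, and its relative SPOCK1 had 1.6 ± 0.247, 3.03 ± 0.534 and 9.62 ± 4.33 CPM. GPC4 fell with both hairpins, with log2 fold changes of −4.92 and −5.97. Among 3 tested relatives of the SLRPs, ECM2 was at or under 3 counts in control, passed the filter through the knockdown libraries and was at least 5.06-fold and 4.76-fold higher with the hairpins, and CHAD and TSKU were not called. TSKU had a log2 fold change of 0.52 with hairpin #1, under the fold threshold (adjusted p = 0.00417 by edgeR's quasi-likelihood test).

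Markers of the labelled cell type and of cells that commonly express SLRPs were counted beside these results. Of 10 tested ovarian serous epithelial markers, 5 fell with each hairpin, 1 rose with hairpin #1 and 2 rose with hairpin #3, and the summed level of the 11 listed was 10440 to 12510 CPM in control, 5416 to 6879 CPM with hairpin #1 and 5416 to 6070 CPM with hairpin #3. CDH1 and EPCAM were at 275.3 ± 5.48 and 402.6 ± 23.6 CPM in control and at 0.112 ± 0.0816 and 5.48 ± 1.25 CPM with hairpin #1, MUC16, tested through the control libraries, had no read in any knockdown library, and WT1 had none in any library. PAX8, the lineage factor of the fallopian tube epithelium, rose by 1.04 and 1.10 on the log2 scale, or by 0.94 and 0.99, under the fold threshold, without control C, and by 0.99 with hairpin #1 without hairpin #1 A. MSLN, mesothelin, named here to account for the count, rose with hairpin #3 by 1.12, or by 0.98, under the fold threshold, without control A or without hairpin #3 C. Of 7 fibroblast markers 2 were tested, PDGFRB and TCF21. FAP did not pass the filter and went the other way, with means of 0.55, 0.35 and 0.129 CPM in control, hairpin #1 and hairpin #3. PDGFRA (0.0159, 0.343 and 0.145 CPM) and THY1 (0.0325, 0.273 and 0.206 CPM) did not pass it either and were higher with both hairpins. PDGFRB rose from 0.555 ± 0.28 CPM to 13.8 ± 5.23 and 16.8 ± 3.43 CPM. It passed the filter through the knockdown libraries, so its calls are no support. TCF21 had no read in control and passed the filter through the knockdown libraries, so it had to differ, and it was at least 8.09-fold and 6.28-fold higher with the hairpins. Their list summed to 0.812 to 1.4 CPM in control, 10.1 to 20.9 CPM with hairpin #1 and 14.2 to 21.3 CPM with hairpin #3, with DPT and C7 at 0 in every library. Endothelial markers summed to 0.796 to 1.16, 2.2 to 4.67 and 4.39 to 6.86 CPM, where CDH5, at or under 3 counts in control and so tested only through the knockdown libraries, was the 1 gene called of 3 tested, and leukocyte markers to at most 2.18 CPM in any library with 0 called of 1 tested by edgeR or DESeq2 and 0 at an unadjusted p below 0.05. The fibroblast sums overlapped between the hairpins, where BGN did not, and the part of these markers' changes in the SLRP levels was not tested.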

How the data were processed

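The libraries were poly(A)-selected and non-directional and were sequenced on an Illumina instrument. The authors deposited 1 table of raw counts for each gene and library, not normalized. The submitters' processing notes name HISAT2 2.0.5, featureCounts 1.5.0-p3 and build hg38. Each of the 9 count columns was matched to its sample by library name.

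Genes were filtered with filterByExpr, which left 15975 genes with 99.889% of the counts (26762 of 58676 genes had no count), scaled by TMM and tested with edgeR 4.0.16 (glmQLFit, glmQLFTest) in R 4.3.3. P-values were adjusted by Benjamini-Hochberg across the tested genes. Both hairpins were taken as 1 knockdown arm, as in the study's methods, and each hairpin was fitted in a 3-group model. A call needs an adjusted p below 0.05 and a log2 fold change of at least 1 in size. Reported errors are SD over libraries or SE of the fit. The floor was 3 counts or fewer in each library of a group, and folds against it are bounds computed with 3 counts in each library. Intervals and floors cover counting error only, since reads without molecular identifiers are not independent molecules. The steps were tested on simulated data. Promoter sequences came from RefSeq, GRCh38.p14.

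The members and the gene lists were chosen with earlier results of these data known, so no value adjusted over a list alone is given. Named were all members, at most 4 called genes with the largest change and a mean of at least 1 CPM in each list, the 5 genes most correlated with BGN, the nearest tested neighbours and MPZL3. Alternatives were no filter, DESeq2 size factors, the DESeq2 1.42.0 Wald test, the replicate letter as a block, no fold threshold and leaving out each library. Replicate letters were checked by the correlation of deviations from group means.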

Additional observations from a re-analysis of the deposited data

Results flagged for a closer look

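11 genes of the pathway lists were called between the hairpins by a test of the difference itself, the quasi-likelihood test of edgeR and Benjamini-Hochberg adjustment over all genes, where MPZL3 had a log2 difference of −0.25 (adjusted p = 0.614). Over all 15975 tested genes 628, or 3.93%, were called between the hairpins, and the numbers tested in each list are given above. All values are hairpin #3 minus hairpin #1 on the log2 scale. Lower with hairpin #3 were XYLT1 (−5.32, adjusted p = 1.34e-07), CHST2 (−1.98, adjusted p = 1.33e-06), CHST15 (−1.24, adjusted p = 0.000137), SDC2 (−6.15, adjusted p = 0.00016), GPC6 (−6.93), COL1A2 (−1.60, adjusted p = 0.0434) and LTBP1 (−1.23, adjusted p = 0.0354). GPC6 passed the filter only through hairpin #1, so it had to differ and its call is no support. Its fitted value depends on the prior count, because hairpin #3 was at the floor, and it was at least 31.5-fold higher with hairpin #1. SDC2 had reads in only 1 library with hairpin #3, at most 5 counts, so the size of its difference is uncertain as well.

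Higher with hairpin #3 were SPOCK2 (3.89, adjusted p = 3.67e-05), LTBP4 (2.12, adjusted p = 0.000901), SPOCK1 (1.67, adjusted p = 0.00182) and CHSY3 (1.08, adjusted p = 0.008). Of these genes SPOCK2 was highest in control, whereas LTBP4, SPOCK1 and CHSY3 had the order of BGN, with control lowest and hairpin #3 highest. The call of LTBP1 was lost without control B, hairpin #1 A, hairpin #1 B, hairpin #3 B or hairpin #3 C, with adjusted p of 0.0527 to 0.149, and CHSY3 was under the fold threshold without hairpin #1 C (0.94, adjusted p = 0.0399).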

How the results depend on the processing

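The count of members other than BGN called in the pooled knockdown was 2, and 1 to 2 when single libraries were left out. The counts with hairpin #1 (2) and hairpin #3 (1) were the same under every alternative. These counts include PRELP, which passed the filter through the knockdown libraries, so their stability is no support for its rise. Over all the pathway lists the counts stayed within 1.5 times under every alternative, at 35 to 40, 41 to 44 and 9 to 12 without single libraries, where leaving out libraries for the lists was added after seeing the data. Of 312 counts of single lists 18 moved. Collagens called between the hairpins went from 1 to 3 without the filter and with the replicate block, where COL1A1 (1.17 with the block, adjusted p = 0.00963) and COL3A1 were added. No value changed sign. The adjusted p of LUM ranged over the alternatives from 0.00349 to 0.0956 in the pooled knockdown, from 1.49e-06 to 0.00375 with hairpin #1 and from 0.0172 to 0.261 with hairpin #3, and that of PRELP from 0.000452 to 0.0439, 0.000102 to 0.0469 and 1.53e-05 to 0.0309. The log2 fold changes of PRELP ranged without single libraries from 1.40 to 2.61, 1.31 to 2.53 and 1.48 to 2.69.

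Same-letter libraries deviated together with r of 0.0651 to 0.655, over 0.1 in 8 of 9 pairs. The A pairs had 0.611, 0.624 and 0.655, and the C pairs 0.436, 0.526 and 0.531. The highest r between different letters was 0.317, of control B with hairpin #1 C, above that of control B with hairpin #1 B (0.0651). The main tests left the letter out, so any effect shared by a letter stayed in their spread, and the letter was a block in 1 alternative. With the replicate block the calls over all genes were 2306 in the pooled knockdown (2342 without it), 2675 with hairpin #1 (2605), 2515 with hairpin #3 (2443) and 754 between the hairpins (628), and the members called were 2, 2 and 1. The low counts of LUM and PRELP and the counts of 0 to 2 reads of the other 6 members limit what depth can show.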

Other observations

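PODN had no read, and ASPN and OGN had 2 reads each. Their neighbours were taken only from genes that passed the filter, so that these had reads was fixed in advance. Within 500 kb of PODN 10 genes were tested and 0 were called with either hairpin by edgeR or by DESeq2, with 3 at an unadjusted p below 0.05 in edgeR for each hairpin. SCP2, a sterol carrier protein 10.3 kb away, had a mean of 132.3 CPM. Around ASPN and OGN 12 genes were tested, of which 1 was called with hairpin #1 and 2 with hairpin #3. Over all tested genes these shares were 16.3% and 15.3%. NOL8 and IPPK, the nearest on each side, had means of 47.3 and 11.7 CPM and log2 fold changes of 0.21 and −0.40 with hairpin #1.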
